A study of Mus musculus with 3 samples.

Results

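The genes described here are 46 genes that carry out the copying and the division of chromosomes, taken as a list by symbol from the 27179 genes measured. They are 22 genes of DNA replication and 24 genes of mitosis, and all 46 were found in the table of values. The list is one of gene function and its rule uses no measured value, but it was drawn up with earlier results of these data known. They were measured in cultures labelled as wild-type mouse bone marrow stromal cells (mBMSCs, the adherent cells grown from bone marrow). The cultures were kept at 3% oxygen and given extracellular vesicles for 3 days. Extracellular vesicles are small membrane particles that cells release and other cells can take up. Ocn-EV cells were given vesicles from the bone marrow plasma of mice that carry the CAGS-Snorkel transgene with Ocn-Cre, and Prx1-EV cells were given vesicles from mice that carry it with Prx1-Cre. All-EV cells were given vesicles from wild-type mice and are the control. Ocn-Cre is driven by the osteocalcin promoter, which is active in osteoblasts and osteocytes, and Prx1-Cre by a promoter active in limb mesenchyme and the cells that come from it. Each vesicle preparation pooled the plasma of 5 C57BL/6N mice (2 males and 3 females, 6 months old). The labels describe capture on a bead column with an antibody to the HA tag, without saying how vesicles of wild-type mice were held. By its title, the study set out a mouse model for vesicles marked by tissue of origin.

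A cell that will divide first loads the MCM helicase onto its replication origins, with the help of Cdc6 and Cdt1. Cyclin E activity, Cdc45 and the GINS complex then set the helicase going, and polymerases held by the sliding clamp Pcna copy both strands. Later, cyclin A and cyclin B with the kinase Cdk1 drive the cell into mitosis, where kinetochores tie the chromosomes to the spindle, a checkpoint waits until all are attached, and cytokinesis parts the daughter cells. Messenger RNAs of the first stage are known to be made mainly under E2F factors, and those of the second under the DREAM and MuvB complexes with B-Myb and FoxM1. In adult bone marrow most stromal cells rest. In a culture these genes are used as a reading of how many cells are cycling, of whatever type. In a bulk sample, fewer cells of a type and less RNA per cell cannot be told apart.

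The promoters of the genes were searched for the letters such factors bind. E2F factors bind letters such as TTTCCCGC, TTTCGCGC, TTTGCCGC and TTTGGCGC, and DREAM and MuvB bind the cell cycle homology region (CHR), TTTGAA, often beside a CCAAT box. These letters were searched on both strands of the RefSeq promoter windows (build GRCm38.p6), which run from 250 bases before to 50 bases after each annotated start and were matched for 38 of the 46 genes in 42 windows. The sequences below are shown because they are clear examples of each element. Capitals mark E2F letters in the first pair and CHR letters in the other 4. Each sequence runs 5′ to 3′ on the strand of its gene and is the stretch of the 200 bases before the start that lies in no annotated exon or gene body. Mcm5 is at chr8:75109309-75109467 on the plus strand, and Mcm6 at chr1:128359706-128359905 on the minus strand. Mki67 is at chr7:135716451-135716579 and Cdk1 at chr10:69352939-69353112, both on the minus strand. Kif11 is at chr19:37376182-37376381 on the plus strand, and Cdc20 at chr4:118437353-118437543 on the minus strand.
Mcm5: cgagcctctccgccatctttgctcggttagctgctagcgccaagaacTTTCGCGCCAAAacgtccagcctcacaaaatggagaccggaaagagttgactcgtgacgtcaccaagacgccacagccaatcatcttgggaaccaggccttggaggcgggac
Mcm6: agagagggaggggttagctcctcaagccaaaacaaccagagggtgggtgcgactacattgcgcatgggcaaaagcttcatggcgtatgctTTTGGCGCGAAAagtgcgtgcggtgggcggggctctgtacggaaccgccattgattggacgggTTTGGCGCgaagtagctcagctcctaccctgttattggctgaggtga
Mki67: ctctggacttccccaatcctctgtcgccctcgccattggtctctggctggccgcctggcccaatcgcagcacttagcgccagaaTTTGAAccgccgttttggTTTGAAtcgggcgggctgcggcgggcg
Cdk1: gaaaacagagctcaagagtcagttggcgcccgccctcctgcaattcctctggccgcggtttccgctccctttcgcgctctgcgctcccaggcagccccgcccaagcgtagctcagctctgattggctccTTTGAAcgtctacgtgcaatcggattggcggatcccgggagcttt
Kif11: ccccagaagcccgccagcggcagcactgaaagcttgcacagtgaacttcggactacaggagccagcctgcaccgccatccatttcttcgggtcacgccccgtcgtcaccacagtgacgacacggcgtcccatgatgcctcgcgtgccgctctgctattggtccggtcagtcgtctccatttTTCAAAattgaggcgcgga
Cdc20: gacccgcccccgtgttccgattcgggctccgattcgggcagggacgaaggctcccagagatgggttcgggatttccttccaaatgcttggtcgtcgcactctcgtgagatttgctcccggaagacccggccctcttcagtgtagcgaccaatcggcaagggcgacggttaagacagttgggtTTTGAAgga

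In Mcm5 and in the first of the 2 marked stretches of Mcm6, E2F letters on both strands overlap each other. In Kif11 the CHR letters are on the opposite strand and read TTCAAA in the printed sequence. E2F letters were in the windows of 10 of 18 replication genes (55.6%), namely Mcm3, Mcm5, Mcm6, Mcm7, Pola1, Pold1, Rfc3, Cdc6, Cdt1 and Uhrf1. They were in 1 of 20 mitotic genes (5%), Cdk1. The CHR letters were in 15 of 20 mitotic genes (75%) and in 2 of 18 replication genes (11.1%), Mcm2 and Cdc45. CHR and CCAAT letters occurred together in 14 of 20 mitotic genes (70%). Among the 8843 expressed genes with a window, E2F letters were in 4.81%, CHR letters in 13.7% and both CHR and CCAAT letters in 6.72%. Over all 27025 genes with a window the shares were 2.60%, 20.2% and 8.97%. Of the CCAAT box alone, 17 of 20 mitotic genes (85%) and 12 of 18 replication genes (66.7%) held a copy, against 42.7% of expressed genes and 41.1% of all genes. These are matches of letters, not measured binding.

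**Figure D1:**
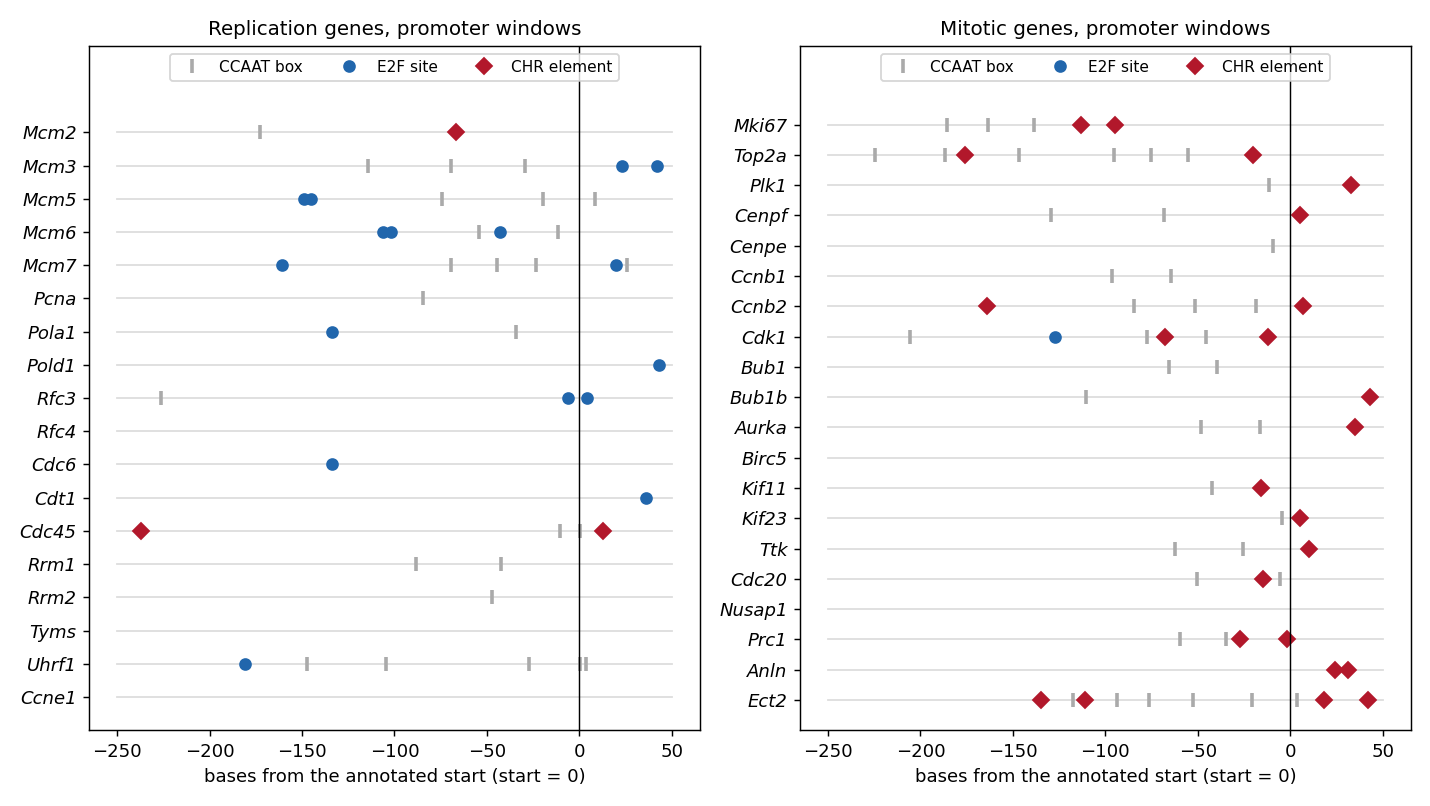
Positions of CCAAT boxes (grey ticks), E2F letters (blue circles) and CHR letters (red diamonds) on either strand, in bases from the annotated start, for 18 replication genes (left) and 20 mitotic genes (right); a gene with several windows has them on 1 line. E2F letters lie in 10 of the 18 replication genes and CHR letters in 15 of the 20 mitotic genes.

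Each group was 1 messenger RNA library (n = 1), so no difference below has a replicate check and none was tested. The libraries held 14233978 (Ocn-EV), 17269204 (Prx1-EV) and 15558165 (All-EV) reads assigned to genes. Levels are the normalised counts that the authors deposited, in which 1 read was worth 1.04 in Ocn-EV, 0.872 in Prx1-EV and 1.13 in All-EV. A log2 ratio is log2((a + 1)/(b + 1)) of 2 levels, so that ratios of low genes are pulled slightly toward 0. Its 95% interval is an exact conditional binomial (Clopper-Pearson) interval of the read counts and covers counting error only, not the spread between cultures. A gene was compared with all others when its mean level over the 3 libraries was at least 50, which 11067 genes reached. Of the 46 genes, 40 reached it (19 for replication and 21 for mitosis), and Cdc6, Tyms, Ccne2, Aurkb, Birc5 and Ttk did not. Of the 40, Rfc4 and Nusap1 were under that level in Ocn-EV, and Plk1 and Ccnb2 in Prx1-EV, and they reached it through their higher libraries. The median log2 ratio of the 11067 genes was -0.02 for Ocn-EV against All-EV, 0.00 for the Prx1-EV library against All-EV and -0.01 for Ocn-EV against Prx1-EV. Both comparisons with All-EV share the All-EV library.

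The labelled cell type was checked against marker genes. The 12 stromal markers took 0.550% of reads in Ocn-EV, 0.357% in Prx1-EV and 0.0859% in All-EV, with Lum at 0 in all 3 libraries. The most abundant stromal marker alone had a level of 44981 of a summed 80994 in Ocn-EV and 7861 of 15122 in All-EV. Of the 12 markers, 8 reached the filter, and all 8 were above All-EV in both other libraries. The 20 macrophage markers took 1.40%, 1.24% and 1.82% of reads in the same order, with 0 of them at 0 reads. The sum was carried by a few abundant genes, among them Lyz2 with 51741 in Ocn-EV, 40548 in Prx1-EV and 140306 in All-EV. Counted by gene, 14 of the 20 were higher than All-EV in Ocn-EV (median log2 ratio 0.43) and 14 of 20 in Prx1-EV (0.27). The median level of a macrophage marker was 5662 in Ocn-EV, 4138 in Prx1-EV and 3734 in All-EV. For a stromal marker it was 627, 450 and 216. In all 3 libraries the macrophage markers thus outweighed the stromal ones, which goes against the label. The erythroid markers had 19, 16 and 39 reads and the lymphocyte markers 39, 33 and 9 reads. The neutrophil markers had 822 reads in Ocn-EV, 1163 in Prx1-EV and 7986 in All-EV, of which Mmp8 had 807, 1155 and 7933, while Ly6g, Elane, Ltf and Retnlg were at 0 in all 3. The megakaryocyte markers had 1811, 1879 and 9394 reads, of which Pf4 had 1755, 1808 and 9244, with Gp9 at 0. The endothelial markers had 968, 1161 and 634 reads. The level of Xist, the RNA of the inactive X chromosome, was 126 in Ocn-EV, 5.23 in Prx1-EV and 320.3 in All-EV, and 4 Y-linked genes were read in all 3. These markers differed between the libraries along with the vesicles given, and their part in the results below was not tested. The values below cannot be assigned to a cell type and are not a reading of stromal cells alone.

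All 46 genes had reads in all 3 libraries. Pcna stood far above the rest, with 5213 in Ocn-EV, 6263 in Prx1-EV and 5009 in All-EV. Per kilobase of the longest annotated transcript, which allows genes to be set beside each other, Pcna averaged 3620 and the next gene, Cdt1, 214. The lowest was Cenpf, with 8.21 per kilobase. The median replication gene had 67.4 per kilobase in Ocn-EV, 49.1 in Prx1-EV and 70.9 in All-EV, and the median mitotic gene 36.5, 24.7 and 32.7 in the same order. Together the 22 replication genes took 0.0722% of reads in Ocn-EV, 0.0720% in Prx1-EV and 0.0550% in All-EV, and the 24 mitotic genes took 0.0238%, 0.0189% and 0.0180%. Pcna has pseudogenes named Pcna-ps1 and Pcna-ps2, and Tyms, Ccnb1, Ccnb2 and Aurkb have 1 named copy each, so reads of these 5 genes are uncertain.

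**Figure D2:**
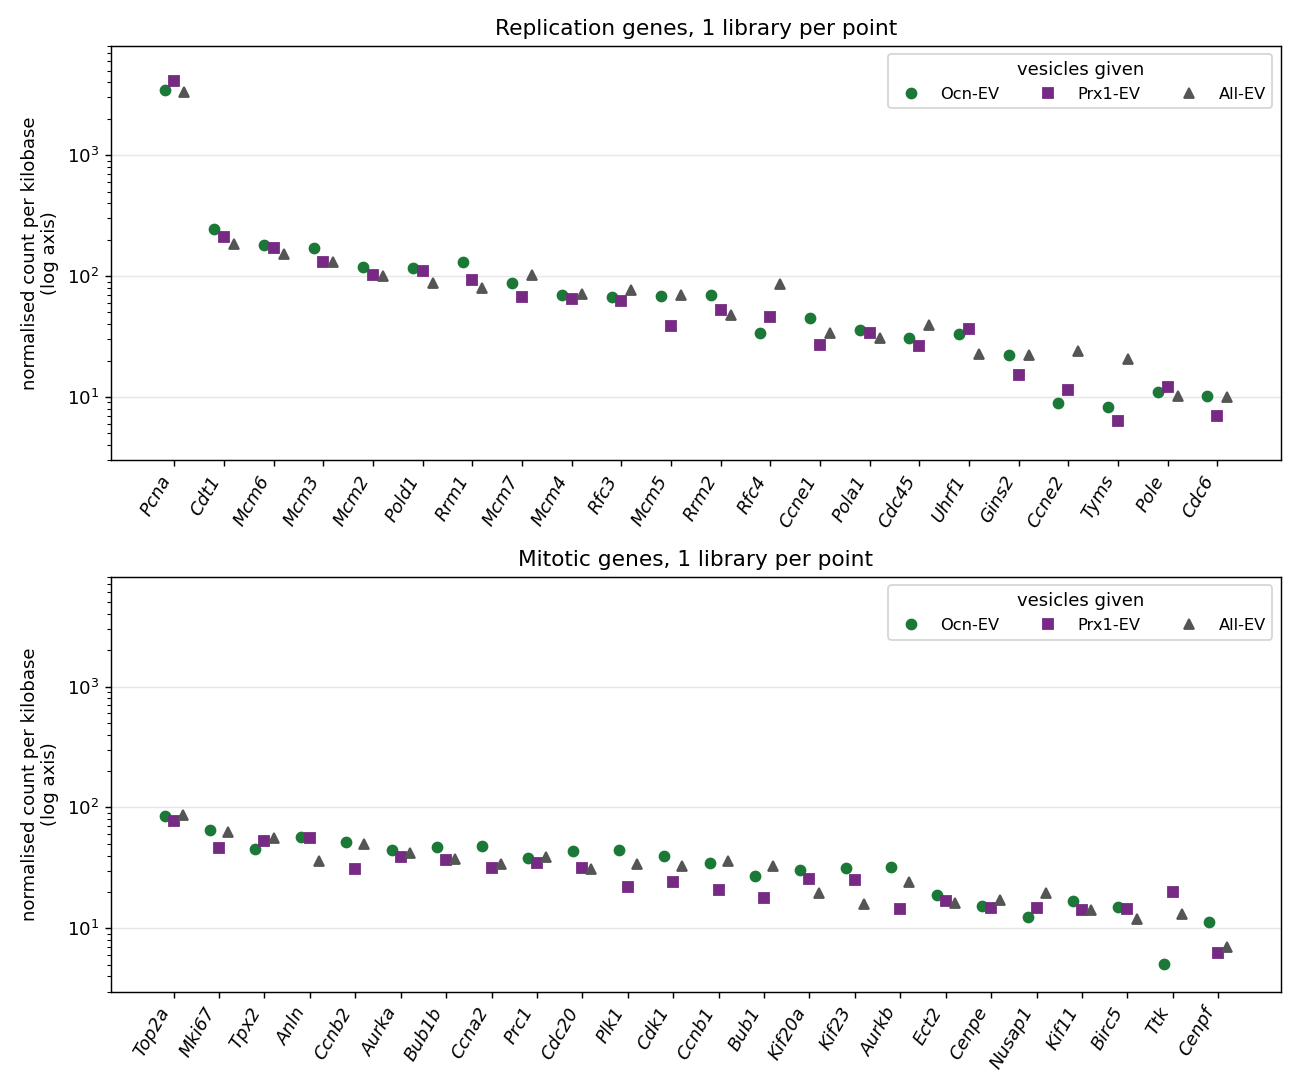
Level per kilobase of the longest transcript (log axis) of each replication gene (top) and mitotic gene (bottom), 1 point per library: Ocn-EV (green circles), Prx1-EV (purple squares) and All-EV (grey triangles), genes ordered by mean. Pcna averages 3620 and all other genes are at or below 214.

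Ocn-EV cells against Prx1-EV cells gave the most one-sided picture. Of the 46 genes, 38 were higher in Ocn-EV by any amount, and the median log2 ratio was 0.22. At least 1.5-fold apart, 10 genes were higher in Ocn-EV (Mcm5, Ccne1, Plk1, Cenpf, Ccnb1, Ccnb2, Ccna2, Cdk1, Bub1 and Aurkb) and 1 was lower (Ttk). Among the 40 genes at the level of 50 or more, 9 were at least 1.5-fold higher (22.5%) and 0 lower, beside 2.24% and 1.3% of all 11067 genes. Any difference upward was seen in 34 of the 40, beside 47% of all genes. The interval lay above 1 for 18 of the 40 and below 1 for 1, Pcna, beside 15.8% and 20.3% of all genes. All genes counted at least 1.5-fold apart here had mean levels under 200. Low genes scatter more, so genes with mean levels from 50 to 586 were also counted. Of these 6200 genes, 52.5% were higher in Ocn-EV, 3.66% at least 1.5-fold higher and 2.26% at least 1.5-fold lower. At mean levels of 200 or more, 0.709% of all genes were at least 1.5-fold higher. The share at levels from 50 to 200 was thus above 3.66% and was not counted by itself. The mitotic genes had the larger share at least 1.5-fold higher, 7 of 21 (33.3%) beside 2 of 19 replication genes (10.5%). Intervals above 1 were as frequent in both, with 9 of 21 (42.9%) and 9 of 19 (47.4%). Higher by any amount in Ocn-EV were 21 of 24 mitotic and 17 of 22 replication genes. The summed level of the mitotic genes was 1.23-fold that of Prx1-EV (95% interval 1.17 to 1.29). The summed level of the replication genes was 0.98-fold with Pcna and 1.18-fold without it (1.14 to 1.23).

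In Ocn-EV cells against All-EV cells the shares past 1.5-fold were near those of all genes or below them. Of the 46 genes, 30 were higher in Ocn-EV, with a median log2 ratio of 0.15. Rrm1, Cenpf, Kif20a, Kif23 and Anln were at least 1.5-fold higher, and Rfc4, Tyms, Ccne2, Ttk and Nusap1 at least 1.5-fold lower. Of the 40 genes at the filter, 5 were at least 1.5-fold higher (12.5%) and 2 lower (5%), beside 13.8% and 13.6% of all genes. The interval lay above 1 for 13 genes and below 1 for 3, beside 32% and 35% of all genes, and 27 were higher by any amount, beside 48.7%. The summed level was 1.10-fold that of All-EV for the replication genes (1.07 to 1.13), 1.16-fold without Pcna (1.11 to 1.21) and 1.10-fold for the mitotic genes (1.05 to 1.16).

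Prx1-EV cells against All-EV cells had more low mitotic genes than high ones at the deposited scaling. Of the 46 genes, 28 were lower in Prx1-EV, and the median log2 ratio was -0.13. Uhrf1, Kif23, Anln and Ttk were at least 1.5-fold higher, and 10 genes were at least 1.5-fold lower (Mcm5, Mcm7, Rfc4, Tyms, Ccne2, Plk1, Ccnb1, Ccnb2, Bub1 and Aurkb). Of the 40 genes at the filter, 3 were higher by that fold (7.5%) and 7 lower (17.5%), beside 12.7% and 12.7% of all genes. The interval lay above 1 for 8 and below 1 for 11, beside 33% and 33.7%, and 16 were higher by any amount, beside 50%. The mitotic genes summed to 0.90-fold of All-EV (0.85 to 0.94) and the replication genes to 1.12-fold with Pcna (1.09 to 1.15) and 0.98-fold without it (0.94 to 1.02). With the libraries set to equal totals, which moved the median of all genes to 0.23, the median of the mitotic genes turned from -0.16 to 0.06 and so stayed below that of all genes. Of the 21 mitotic genes, 3 were then at least 1.5-fold higher and 1 lower, beside 23.1% and 6.45% of all genes. As a share of reads the mitotic genes went the other way, with 0.0189% in Prx1-EV and 0.0180% in All-EV. The direction thus depended on the scaling.

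**Figure D3:**
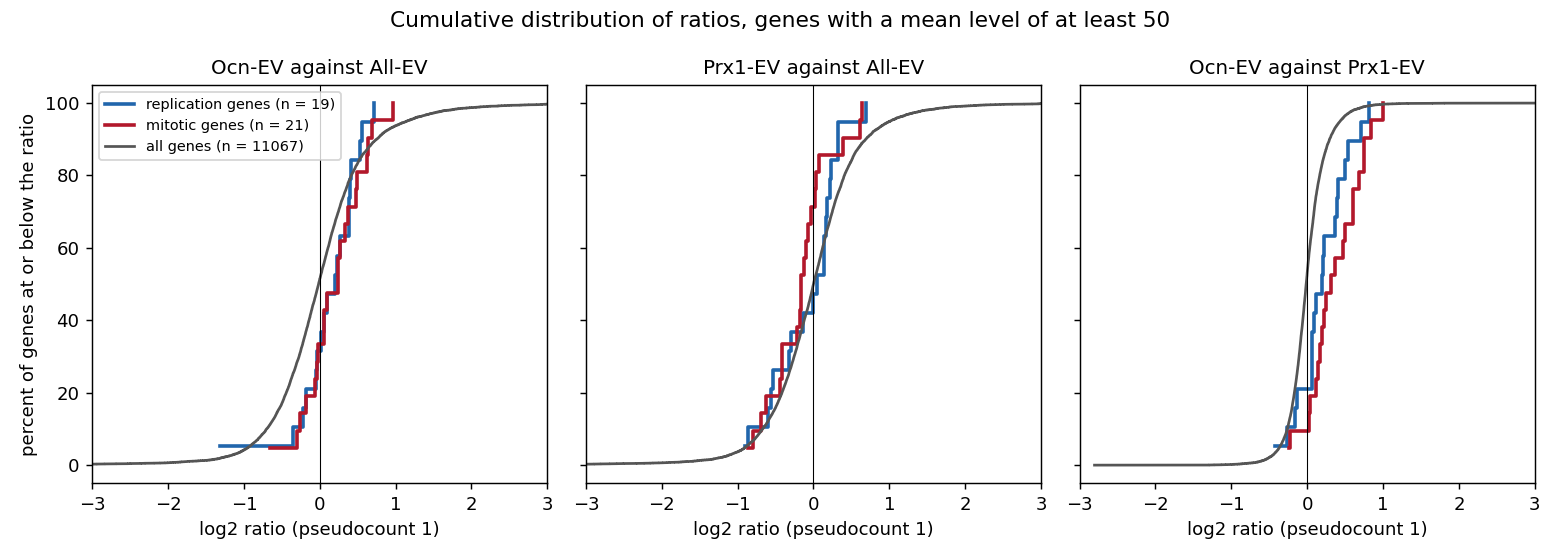
Percent of genes at or below each log2 ratio for the 19 replication genes (blue), the 21 mitotic genes (red) and all 11067 genes (grey), in the 3 comparisons. For Ocn-EV against Prx1-EV both coloured curves lie to the right of the grey one over most of their range, with medians of 0.20 and 0.32 beside -0.01.

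**Figure D4:**
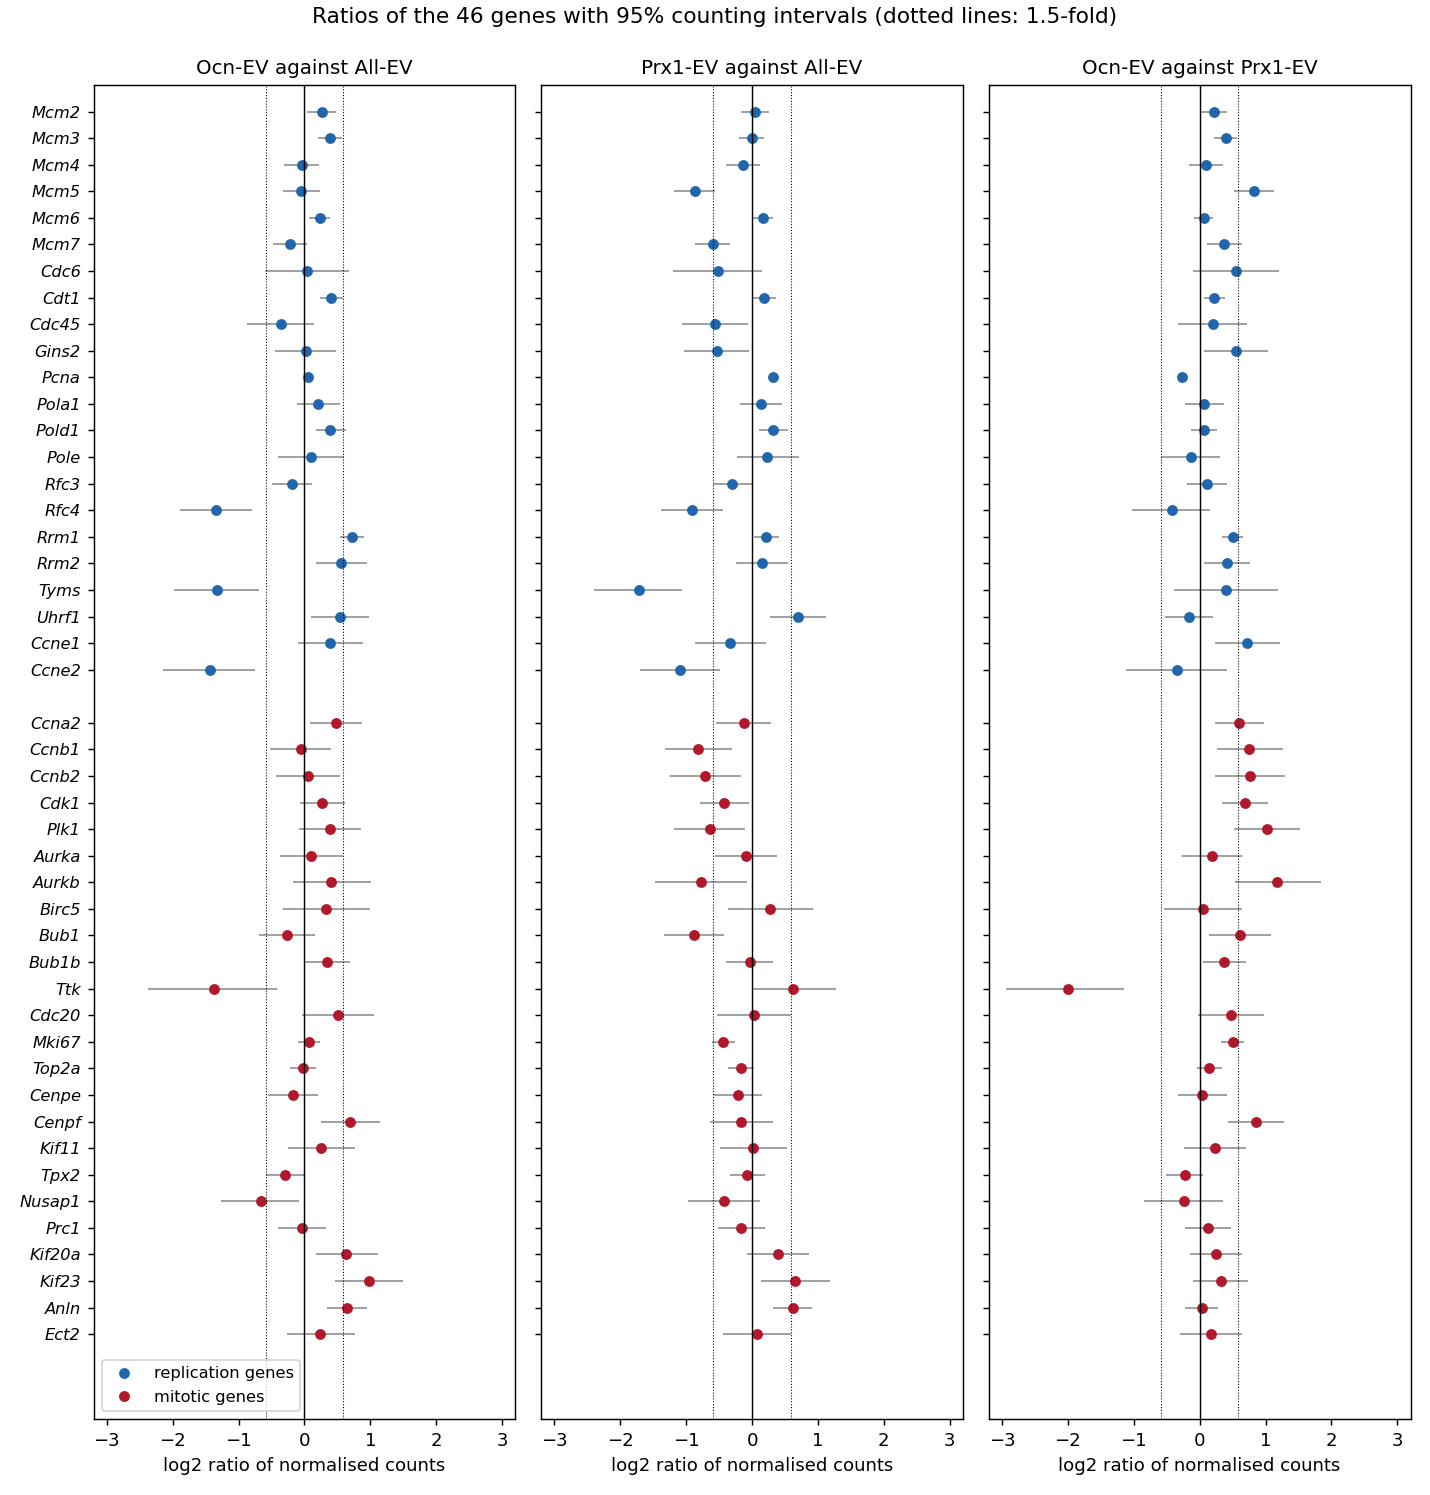
Log2 ratio of normalised counts, without the pseudocount, of the 46 genes in the 3 comparisons, with 95% counting intervals; dotted lines mark 1.5-fold. In the right panel 38 of the 46 points lie above 0, and Ttk is the only one past the lower dotted line.

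The MCM helicase, the motor that opens the DNA, was read from its 6 subunit genes. All 6 were higher in Ocn-EV than in Prx1-EV, by log2 ratios from 0.06 (Mcm6) to 0.82 (Mcm5). Mcm5 (chr8:75109468-75128439) had a level of 229.9 in Ocn-EV, 129.98 in Prx1-EV and 238 in All-EV. Prx1-EV was low and the interval of Ocn-EV against All-EV held 1, with a log2 ratio of 0.82 for Ocn-EV against Prx1-EV (0.52 to 1.13) and of -0.87 for Prx1-EV against All-EV (-1.18 to -0.56). Mcm7 showed the same order, with 258 in Ocn-EV, 199 in Prx1-EV and 301 in All-EV. Mcm7 shares exon sequence with its neighbours Ap4m1 and Cops6 on the other strand. Mcm2 (415, 358 and 346) and Mcm3 (588, 448 and 449), in the order Ocn-EV, Prx1-EV and All-EV, were instead highest in Ocn-EV. Mcm4 (249.5, 234 and 257) and Mcm6 (782, 748 and 667) varied least, and the subunits, which act as 1 ring, did not keep a common order of libraries.

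Among the genes that load and start the helicase, Cdt1, which brings MCM to the origin, had 664 in Ocn-EV, 569 in Prx1-EV and 500.2 in All-EV. Its log2 ratio was 0.41 for Ocn-EV against All-EV (0.23 to 0.59) and 0.19 for Prx1-EV against All-EV (0.01 to 0.36). The loading factor Cdc6 was low, with 48.7, 33.1 and 47.5 in the same order. Cdc45 (65.2, 56.7 and 83.7) and the GINS subunit Gins2 (87.0, 59.3 and 86.0) were lowest in Prx1-EV too, with log2 ratios to All-EV of -0.55 (-1.07 to -0.06) and -0.53 (-1.03 to -0.04). All 4 genes were higher in Ocn-EV than in Prx1-EV, and only the intervals of Cdt1 and Gins2 lay above 1. Cdc45 and Gins2 share exon sequence with Ufd1 and Gse1 on the other strand.

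At the fork itself, the level of Pcna was highest in Prx1-EV, with log2 ratios of 0.32 to All-EV (0.27 to 0.38) and of -0.26 for Ocn-EV against Prx1-EV (-0.32 to -0.21). Of the polymerase genes, Pold1, the catalytic subunit of polymerase delta, had 405 in Ocn-EV, 386 in Prx1-EV and 308 in All-EV, with ratios to All-EV of 0.39 (0.17 to 0.62) and 0.32 (0.10 to 0.55). Pola1, of polymerase alpha, had 189, 181 and 164, and Pole, of polymerase epsilon, 78.7, 86.4 and 73.6 in the same order. For Pola1 and Pole all 3 intervals held 1. Pole shares exon sequence with Gm15792 on the other strand. The clamp loader subunit Rfc4 (chr16:23113948-23127730) was the gene of the 40 farthest below All-EV, with 43.5 in Ocn-EV, 58.4 in Prx1-EV and 109.8 in All-EV. Both ratios to All-EV were low, at -1.32 for Ocn-EV (-1.89 to -0.80) and -0.90 for Prx1-EV (-1.38 to -0.45). Its partner Rfc3 had 182, 168 and 207 and did not share that size of difference. Rfc4 shares exon sequence with Eif4a2, a translation factor gene on the other strand.

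The genes that supply nucleotides did not share an order of libraries. Rrm1, the large subunit of ribonucleotide reductase (chr7:102441695-102469771), had 718 in Ocn-EV, 507 in Prx1-EV and 437 in All-EV. It was the replication gene farthest above All-EV in Ocn-EV, at 0.71 (0.53 to 0.90), and was also above Prx1-EV, at 0.50 (0.34 to 0.66). The small subunit Rrm2 kept the same order, with 153, 115 and 104. Tyms, which makes thymidylate, was highest in All-EV, with 32.1 in Ocn-EV, 24.4 in Prx1-EV and 80.3 in All-EV, or 31, 28 and 71 reads. Its log2 ratio was -1.30 for Ocn-EV against All-EV (-1.98 to -0.70) and -1.68 for Prx1-EV against All-EV (-2.40 to -1.07). Uhrf1, which carries DNA methylation over to the new strand, had 118 in Ocn-EV, 132 in Prx1-EV and 81.5 in All-EV, and its ratios to All-EV were 0.53 (0.10 to 0.98) and 0.69 (0.28 to 1.12).

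The cyclin E genes, whose proteins with Cdk2 bring cells into S phase, differed from each other. Ccne1 had 89.0 in Ocn-EV, 54.1 in Prx1-EV and 67.9 in All-EV, highest in Ocn-EV. Ccne2 had 26.9, 34.0 and 72.4, highest in All-EV, with log2 ratios to All-EV of -1.39 for Ocn-EV (-2.14 to -0.75) and -1.07 for Prx1-EV (-1.70 to -0.49). Ccne2 shares exon sequence with Ints8 on the other strand.

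Mitotic cyclins and Cdk1, the engine of entry into mitosis, were the group that differed most between Ocn-EV and Prx1-EV. All 4 were at least 1.5-fold higher in Ocn-EV, and their summed level was 1.61-fold (1.40 to 1.86). Cdk1 (chr10:69335146-69352912) had 172 in Ocn-EV, 106 in Prx1-EV and 143 in All-EV, a log2 ratio of 0.69 between Ocn-EV and Prx1-EV (0.35 to 1.04). The cyclin B genes Ccnb1 (87.0, 51.5 and 90.5) and Ccnb2 (79.7, 47.1 and 77.0) had log2 ratios of 0.75 (0.26 to 1.26) and 0.75 (0.24 to 1.29). Cyclin A gene Ccna2, which shares exon sequence with Exosc9 on the other strand, had 142, 93.3 and 102 and a ratio of 0.60 (0.23 to 0.98). In 3 of these 4 genes the interval of Ocn-EV against All-EV held 1 and Prx1-EV was low, and Ccna2 was higher in Ocn-EV than in both. Against All-EV their summed level was 0.72-fold in Prx1-EV (0.62 to 0.84) and 1.17-fold in Ocn-EV (1.01 to 1.34).

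The mitotic kinases and the checkpoint genes followed in part. Plk1, the polo-like kinase (chr7:122159435-122169884), had 97.3 in Ocn-EV, 48.0 in Prx1-EV and 74.7 in All-EV. It had the largest ratio of Ocn-EV to Prx1-EV among the 40 genes, at 1.01 (0.53 to 1.53). Plk1 shares exon sequence with Gm44985 on the other strand. Aurkb, the kinase of the chromosomal passenger complex, lay below the filter with 63.2, 27.9 and 47.5, or 61, 32 and 42 reads, and a ratio of 1.15 (0.54 to 1.84). Its partner Birc5 had 49.7, 48.0 and 39.6, and the spindle kinase Aurka 84.9, 74.2 and 79.2, with all intervals of both holding 1. Bub1, a checkpoint kinase, had 93.2 in Ocn-EV, 61.1 in Prx1-EV and 112 in All-EV, lowest in Prx1-EV. Bub1b, which holds back the anaphase-promoting complex, had 173, 133 and 137, and Cdc20, the activator of that complex, 78.7, 56.7 and 55.5, both highest in Ocn-EV. Cdc20 shares exon sequence with Elovl1 on the other strand. The checkpoint kinase Ttk was lowest in Ocn-EV, with 14.5 in Ocn-EV, 57.6 in Prx1-EV and 37.3 in All-EV.

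Of the chromosome and kinetochore genes, Mki67, which coats mitotic chromosomes and is the usual marker of cycling cells, had 659.6 in Ocn-EV, 467 in Prx1-EV and 631 in All-EV. The Prx1-EV library was the low one, at -0.44 against All-EV (-0.61 to -0.26), and Ocn-EV was 0.50 above Prx1-EV (0.33 to 0.67). Top2a, which untangles DNA, had 444, 400.4 and 452 in the same order and all its intervals held 1. The kinetochore motor Cenpe (120.1, 117 and 136) varied as little. Top2a shares exon sequence with Gm23451, a small RNA gene on the same strand. Cenpf, a large kinetochore protein (chr1:189640606-189688107), had 126 in Ocn-EV, 69.8 in Prx1-EV and 78.1 in All-EV, and was above both, at 0.85 (0.44 to 1.28) and 0.69 (0.26 to 1.14).

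The 4 spindle genes did not share the difference between Ocn-EV and Prx1-EV, with a summed level of 0.96-fold (0.85 to 1.09). The motor Kif11, which pushes the spindle poles apart, had 80.8, 68.9 and 67.9 in Ocn-EV, Prx1-EV and All-EV. Tpx2, which nucleates spindle microtubules, had 197, 230.3 and 242, and Nusap1, which bundles them, 43.5, 51.5 and 69.0. These 2 genes were lowest in Ocn-EV, and Tpx2 and Nusap1 had log2 ratios to All-EV of -0.30 (-0.59 to -0.01) and -0.65 (-1.27 to -0.08). Prc1, the crosslinker of the central spindle, had 139, 127 and 143. Nusap1 and Prc1 share exon sequence with Oip5 and Rccd1 on the other strand.

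The 4 genes grouped here under cytokinesis had another order, with All-EV lowest. Prc1, of the central spindle, was grouped with the spindle genes above and was not lowest in All-EV. The kinesin Kif23, part of the centralspindlin complex (chr9:61917277-61946810), had 107 in Ocn-EV, 85.5 in Prx1-EV and 54.3 in All-EV, with ratios to All-EV of 0.96 (0.47 to 1.5) and 0.64 (0.14 to 1.18). Anln, the anillin scaffold of the contractile ring (chr9:22331214-22389211), had 262, 256 and 167, with ratios of 0.64 (0.35 to 0.95) and 0.61 (0.32 to 0.91). The kinesin Kif20a, which shares exon sequence with Cdc23 on the other strand, had 111, 93.3 and 71.3, and Ect2, which acts in furrow formation, had 77.7, 68.9 and 65.6. All 4 were above All-EV in both other libraries, and their summed level was 1.55-fold in Ocn-EV (1.35 to 1.79) and 1.41-fold in Prx1-EV (1.22 to 1.62). For Ect2 both intervals against All-EV held 1, as did that of Kif20a in Prx1-EV. Anln is also part of the cortex of cells that are not dividing.

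Further genes of the same machinery were taken from lists made by function. Of 50 other replication genes, 44 reached the filter. Their median log2 ratio for Ocn-EV against Prx1-EV was -0.02, beside -0.01 for all genes and 0.20 for the replication genes described above. Of the 44, 2 were at least 1.5-fold higher (4.55%) and 1 lower (2.27%), beside 2.24% and 1.3% of all genes. Against All-EV their medians were -0.09 for Ocn-EV (3 higher, 4 lower) and -0.03 for Prx1-EV (2 higher, 6 lower). These counts were 6.82% and 9.09% in Ocn-EV, beside 13.8% and 13.6% of all genes. In Prx1-EV they were 4.55% and 13.6%, beside 12.7% and 12.7%. Timeless, of the fork protection complex, had 119 in Ocn-EV, 73.3 in Prx1-EV and 46.4 in All-EV. Rpa3, of the complex that covers single-stranded DNA, was highest in All-EV with 80.8, 63.7 and 149, as was the helicase Hells with 69.4, 60.2 and 129. The kinase Tk1, which salvages thymidine, had 105, 79.4 and 80.3, and Gmnn, the inhibitor of Cdt1, 276, 326 and 299. Of 72 other mitotic genes, 33 reached the filter, and their median for Ocn-EV against Prx1-EV was 0.15. Of the 33, 3 were at least 1.5-fold higher (9.09%) and 0 lower, beside 2.24% and 1.3% of all genes. Their medians against All-EV were -0.10 for Ocn-EV (3 higher, 2 lower) and -0.28 for Prx1-EV (3 higher, 6 lower). These counts were 9.09% and 6.06% in Ocn-EV, beside 13.8% and 13.6% of all genes. In Prx1-EV they were 9.09% and 18.2%, beside 12.7% and 12.7%.

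Single members of the mitotic list lay far from All-EV on either side. The centromere histone Cenpa had 272 in Ocn-EV, 257 in Prx1-EV and 105 in All-EV, with ratios of 1.36 (1.03 to 1.73) and 1.28 (0.95 to 1.64). The condensin subunit Ncaph had 135, 89.9 and 52.1. Plk4, the kinase that doubles centrioles, had 179, 215 and 441, with ratios of -1.30 (-1.57 to -1.04) and -1.03 (-1.27 to -0.80). Of 19 genes of recombination and fork repair only 5 reached the filter, with medians of -0.06 and 0.15 against All-EV. For Ocn-EV against Prx1-EV the median of the 5 was -0.23, with 1 higher and 4 lower. Over all 19, most of them low, it was 0.24, with 13 higher and 6 lower. Of the 5 genes, Brca2 had 93.2, 107 and 52.1, Xrcc3 183, 148 and 134, and Blm 187, 219.8 and 243 in Ocn-EV, Prx1-EV and All-EV.

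The regulators of the cycle were read beside the machinery. Of 18 genes for entry into the cycle, 16 reached the filter. For Ocn-EV against Prx1-EV their median log2 ratio was 0.01, with 8 higher and 8 lower, beside 47% of all genes higher. Of the 16, 2 were at least 1.5-fold higher (12.5%) and 0 lower, beside 2.24% and 1.3% of all genes. Against All-EV their medians were 0.05 in Ocn-EV and -0.05 in Prx1-EV. Ccnd1 and Ccnd2, of the cyclin D genes that start the cycle after growth signals, were highest in Ocn-EV. Ccnd1 had 2021 in Ocn-EV, 1424 in Prx1-EV and 1536 in All-EV, and Ccnd2 1038, 653 and 701, with ratios of Ocn-EV to Prx1-EV of 0.51 (0.41 to 0.60) and 0.67 (0.53 to 0.81). Foxm1, a factor for mitotic genes, had 103, 68.9 and 64.5, a ratio of 0.57 for Ocn-EV against Prx1-EV (0.13 to 1.02). Mybl2, the gene of B-Myb, lay below the filter with 53.8, 36.6 and 19.2, or 52, 42 and 17 reads. E2f1 had 450.4, 518 and 517, a ratio of -0.20 for Ocn-EV against Prx1-EV (-0.38 to -0.02), and its repressive relative E2f8 had 53.8, 31.4 and 73.6. Myc, a transcription factor that drives growth, was low in both with 698 in Ocn-EV and 699 in Prx1-EV, against 1737 in All-EV, a ratio of -1.31 (-1.45 to -1.18) and -1.31 (-1.44 to -1.19). Cdk6, the partner kinase of cyclin D, was high in both, with 285, 327 and 163.

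All 26 genes of the brakes on the cycle reached the filter, and their medians against All-EV were -0.14 in Ocn-EV and -0.14 in Prx1-EV. In each, 2 genes were at least 1.5-fold higher (7.69%) and 4 lower (15.4%). Of all genes, 13.8% and 13.6% were so in Ocn-EV, and 12.7% and 12.7% in Prx1-EV. Between Ocn-EV and Prx1-EV, 0 of 26 were past 1.5-fold, beside 2.24% higher and 1.3% lower of all genes. Cdkn1c (p57), an inhibitor of cyclin-dependent kinases that keeps cells at rest, had 666 in Ocn-EV and 641 in Prx1-EV, against 2397 in All-EV, with ratios of -1.85 (-1.98 to -1.72) and -1.90 (-2.03 to -1.78). The stress gene Gadd45a (941, 1057 and 2314) and the antiproliferative gene Btg1 (1844, 1507 and 3808) were lower in both as well. Cdkn1b (p27) was somewhat lower in both, with 1398, 1400.2 and 1721. Cdkn1a (p21), a target of p53, had 7446 in Ocn-EV, 7986 in Prx1-EV and 7240 in All-EV, with ratios to All-EV of 0.04 (-0.01 to 0.09) and 0.14 (0.10 to 0.19).

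**Figure D5:**
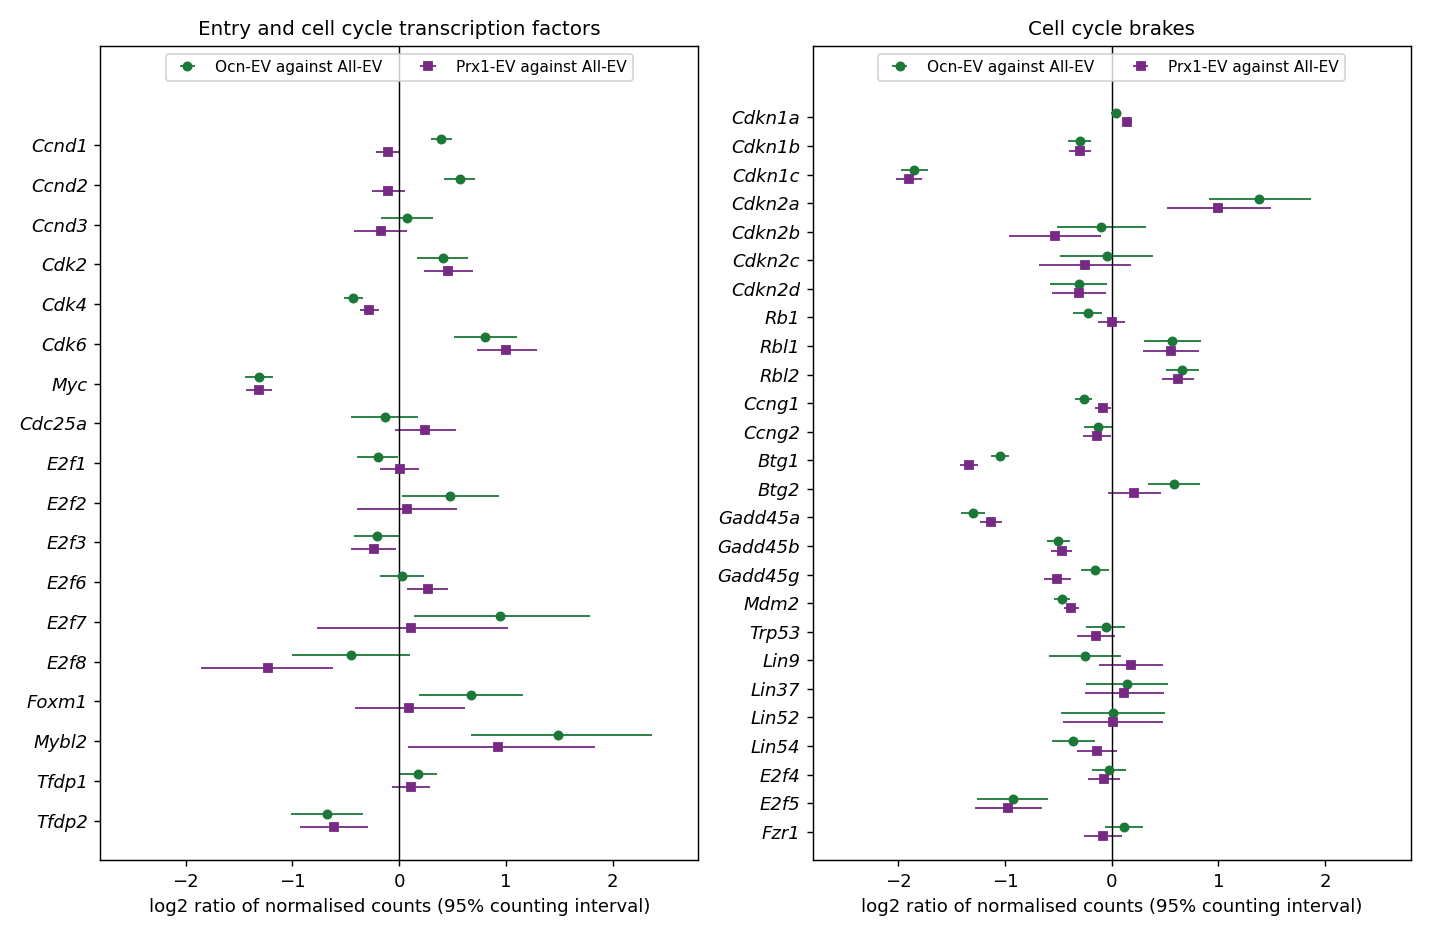
Log2 ratio to All-EV, without the pseudocount, of 18 entry genes and factors (left) and 26 brakes (right), in Ocn-EV (green circles) and Prx1-EV (purple squares), with 95% counting intervals. Ccnd1 and Ccnd2 separate the 2 libraries, at 0.40 and 0.57 for Ocn-EV, and Cdkn1c lies near -1.85 in Ocn-EV.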

How the data were processed

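Messenger RNA of 3 cultures was sequenced, 1 library per group, from 100 ng of RNA as 150-base read pairs, per the labels' protocols. Groups came from the sample labels. The authors deposited 1 normalised signal value per gene and library. Tools listed in the submitters' processing notes are DESeq2 2.11.40.8, featureCounts 2.0.3, HISAT2 2.2.1, Trimmomatic 0.38.1 and FastQC 0.74, with the build mm10 and no order or settings. Whether counting used strand was not given in the sources used. For this reason 13 of the 46 genes that share exon sequence with another gene cannot be separated from it.

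Dividing each library by its smallest value gave whole reads for 100% of values at a tolerance of 1e-06. Ratios, intervals (95%) and shares were computed from these reads and the deposited values with Python 3.11.15, scipy 1.17.1 and pandas 2.3.3. The pseudocount was 1 and the filter a mean level of 50. Intervals were tried on data simulated with counting error alone. That check cannot show how they hold for reads that are not independent or for the spread between cultures. Symbols and positions came from RefSeq (GRCm38.p6, the build also called mm10), which matched 25275 of 27179 identifiers. Transcript lengths came from GENCODE vM21. The reads carry no molecular identifiers and are not independent molecules. No test between conditions was possible with 1 library a group. An exact binomial test on reads, added after the data were seen, compares libraries only. The 46 genes, the lists and the thresholds were chosen with earlier results of these data known. By rule all 46 genes were named, with 3 genes of each further list farthest from All-EV on average and 11 regulators.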

Additional observations from a re-analysis of the deposited data

Results flagged for a closer look

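Ttk, the kinase that starts the spindle checkpoint, lay on opposite sides of All-EV in the Ocn-EV and Prx1-EV libraries. Its log2 ratio was -1.31 for Ocn-EV against All-EV (95% counting interval -2.38 to -0.42) and 0.61 for Prx1-EV against All-EV (0.00 to 1.27). It had 14 reads in Ocn-EV, 66 in Prx1-EV and 33 in All-EV, so its mean level was below the filter of 50. With 1 library per group the difference between the effects was not tested. It was the only one of the 46 genes at least 1.5-fold away from All-EV in opposite directions.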

How the results depend on the processing

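Under the alternatives the medians for Ocn-EV against Prx1-EV ran from 0.09 to 0.35 for the mitotic genes (0.32 as reported) and from 0.18 to 0.23 for the replication genes (0.20). Equal totals moved the medians of all genes to 0.24 and 0.23 against All-EV. The medians in Ocn-EV against All-EV were then 0.49 (mitotic) and 0.46 (replication), and those in Prx1-EV were 0.06, against -0.16 as reported, and 0.27. The replication median in Prx1-EV against All-EV, 0.05, was -0.04 with the length and GC trend removed and -0.07 with a filter of 10 or none. With a filter of 200 the mitotic medians were 0.02 in Ocn-EV against All-EV and 0.09 in Ocn-EV against Prx1-EV.

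Upper-quartile scaling left the counts of genes at least 1.5-fold apart as they were. A pseudocount of 5 lowered the mitotic genes higher in Ocn-EV than in Prx1-EV from 7 to 5 of 21, beside 2.02% of all genes. With equal totals, 8 of 21 mitotic genes were higher and 0 lower in Ocn-EV and 7 of 19 replication genes higher, beside 24.9% and 6.58% of all genes. In Prx1-EV 3 mitotic genes were then higher and 1 lower, beside 23.1% and 6.45%. With a filter of 10 or none, which takes in all 24 and 22 genes, mitotic genes lower in Ocn-EV were 2 against All-EV and 1 against Prx1-EV, and replication genes lower than All-EV were 3 in Ocn-EV and 5 in Prx1-EV. A filter of 10 gave 15.0%, 3.75% and 14.7% of all genes lower in Ocn-EV against All-EV, Ocn-EV against Prx1-EV and Prx1-EV against All-EV. With no filter these shares were 19.4%, 11.1% and 19.5%. Mitotic genes higher in Ocn-EV than in Prx1-EV were 8 of 24 at both settings. Of all genes, 6.19% were so with a filter of 10 and 14.0% with none. A filter of 200 left 4 mitotic and 9 replication genes. Of these, 0 mitotic and 0 replication genes were higher in Ocn-EV than in Prx1-EV, beside 0.709% of all genes. Against All-EV, 1 mitotic gene was higher in each library and 0 lower. Of replication genes 1 was higher and 0 lower in Ocn-EV, and 0 higher and 1 lower in Prx1-EV. Of all genes at that filter, 10.9% were higher and 13.6% lower in Ocn-EV, and 10.3% and 12.2% in Prx1-EV. With the length and GC trend removed, 0 mitotic genes were lower and 2 replication genes higher in Ocn-EV, and 2 replication genes were higher in Prx1-EV. Of all genes, 11.1% were then lower and 13.0% higher in Ocn-EV, and 11.7% were higher in Prx1-EV. The binomial test, which covers counting error only, called 8 replication genes higher and 1 lower in Ocn-EV, and 5 higher and 5 lower in Prx1-EV. For Ocn-EV against Prx1-EV it called 6 higher and 1 lower. Of mitotic genes it called 5 higher and 1 lower in Ocn-EV, 2 and 6 in Prx1-EV, and 8 and 0 in Ocn-EV against Prx1-EV. Of all 11067 genes it called 7134 in Ocn-EV against All-EV (3404 higher, 3730 lower) and 7092 in Prx1-EV (3502 and 3590). For Ocn-EV against Prx1-EV it called 2840 (1227 and 1613). No replicate could be left out. No paired analysis was possible because each group is 1 library.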
